A study of Homo sapiens with 2 samples.

Results

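Genes of human chromosomes 18 and 21 were compared between the cell lines of a pool of ovarian cancer cells sequenced with long reads. Members were all gene entries whose deposited position lies on chromosome 18 or 21, except those named ATP5, NDUF, COL, LAM, HSP or DNAJ (by their first letters), CDH2 and KDSR. The rule gave 1964 of 57110 gene entries, with 3202 of 99493 transcripts: 1153 entries on chromosome 18 (354 on the short arm 18p, 799 on the long arm 18q) and 811 on chromosome 21 (120 on 21p, 691 on 21q). The exceptions left out 20 entries of the 2 chromosomes. The chromosomes were singled out because earlier results of the same data showed gene log ratios between lines that lean one way along them, so those log ratios are given here as a description, with no test.

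IGROV1, SK-OV-3 and COV504, established human ovarian cancer lines, were detached with trypsin, mixed in equal parts and captured as single cells on the 10x Genomics platform. The same capture was sequenced once on Illumina and once on the PromethION nanopore instrument, and all 2462 barcodes of the nanopore matrix are also in the Illumina barcode list. No treatment separates the lines, and all cells share the pool, the capture and the library. The deposited tables do not say which cell belongs to which line.

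Lines were therefore rebuilt from marker genes, none of which lies on chromosome 18 or 21. Of 2462 barcodes, 2129 held at least 1000 counts. A barcode joined a line where the markers of that line held at least 75% of its counts over all markers: ERBB2, NNMT, TSPAN1 and DHRS2 for the ERBB2-high line (648 cells, 3442383 counts), RARRES2 and TMEM100 for the RARRES2-high line (473 cells, 3377992 counts), and FOLR1, CLDN3, DEFB1 and CXCL14 for the FOLR1-high line (765 cells, 4514999 counts). The other 243 barcodes with enough counts were not used; 40 of the barcodes had a marker share from 70 to 75% and 84 one from 75 to 80%. The neighbours of ERBB2 on chromosome 17 that are co-amplified with it in SK-OV-3 were highest in the ERBB2-high line. STARD3 had 214, 22.2 and 13.3 CPM (counts of the gene scaled to 1000000 counts of the line) in the ERBB2-high, RARRES2-high and FOLR1-high lines. MIEN1 had 528, 143 and 103 CPM, PGAP3 22.9, 2.37 and 1.77, and GRB7 56.4, 2.66 and 28.8, closer to FOLR1-high. CDKN2A had 1, 0 and 88 counts, which does not separate ERBB2-high from RARRES2-high. By these markers the ERBB2-high line is SK-OV-3-like; the other 2 were not matched to a name. Markers of blood (PTPRC, CD3E, LYZ), endothelial (PECAM1, VWF) and fibroblast (DCN, LUM) cells had at most 8 counts in any line, and CD3E, LYZ and DCN had 0 in all lines. Median counts per cell were 4953, 6262 and 5289, the share of mitochondrial transcripts 2.93, 3.11 and 7.07%, and that of ribosomal protein genes 12.9, 16.2 and 28.7%, in the same order. Each line is 1 pool of cells from 1 library, so no test between lines was possible, and every interval below is a 95% interval that covers counting error only.

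Cancer cell lines often carry gains and losses of whole chromosomes or arms, and such changes can move the transcript levels of many genes of a chromosome together, each gene by a small amount. Chromosome 18 holds TYMS, SMAD2, SMAD4 and BCL2, as well as the clade B serpin and desmosomal cadherin clusters. Chromosome 21, the smallest autosome, holds SOD1, APP, RUNX1, the type I interferon receptor genes and the MX genes, and is studied most for dosage in trisomy. Transcript numbers alone do not give DNA copy number, which was not measured.

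The sequences below belong to the members on which the later results turn. Within a gene, the share of each transcript was not used to choose the members. The largest differences between lines were in PRMT2, a protein arginine methyltransferase gene at the far end of 21q, and in TPGS2 on 18q, which encodes a subunit of a tubulin polyglutamylase complex. The short form of PRMT2 (ENST00000397628, 6 exons, 253 codons) reads on past a splice site of the long form (ENST00000397637, 11 exons, 433 codons) and ends its coding region there. In the next lines, 12 shared bases are in lower case and the bases found in 1 form of the pair are in capitals, from GENCODE 29. They lie at chr21:46649740-46649844 and chr21:46658745-46658920, plus strand.
PRMT2 short form: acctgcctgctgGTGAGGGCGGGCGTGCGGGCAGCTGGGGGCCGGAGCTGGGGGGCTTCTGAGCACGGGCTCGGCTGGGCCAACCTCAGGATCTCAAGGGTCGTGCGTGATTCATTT
PRMT2 long form: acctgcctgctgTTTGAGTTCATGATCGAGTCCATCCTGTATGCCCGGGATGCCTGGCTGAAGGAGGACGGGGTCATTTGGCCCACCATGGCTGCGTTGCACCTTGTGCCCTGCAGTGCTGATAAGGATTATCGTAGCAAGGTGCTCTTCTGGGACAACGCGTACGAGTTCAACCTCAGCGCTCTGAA
The forms of TPGS2 end in different last coding exons, at chr18:36796808-36797050 for the proximal form (ENST00000334295, 300 codons) and chr18:36786825-36787079 for the distal form (ENST00000590842, 304 codons), both on the minus strand.
TPGS2 proximal form: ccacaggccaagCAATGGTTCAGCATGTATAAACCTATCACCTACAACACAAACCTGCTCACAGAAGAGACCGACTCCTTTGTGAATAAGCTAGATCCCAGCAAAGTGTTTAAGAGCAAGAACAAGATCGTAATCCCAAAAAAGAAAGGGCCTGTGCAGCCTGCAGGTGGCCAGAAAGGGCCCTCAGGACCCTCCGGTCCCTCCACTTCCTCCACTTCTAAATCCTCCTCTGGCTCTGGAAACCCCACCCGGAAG
TPGS2 distal form: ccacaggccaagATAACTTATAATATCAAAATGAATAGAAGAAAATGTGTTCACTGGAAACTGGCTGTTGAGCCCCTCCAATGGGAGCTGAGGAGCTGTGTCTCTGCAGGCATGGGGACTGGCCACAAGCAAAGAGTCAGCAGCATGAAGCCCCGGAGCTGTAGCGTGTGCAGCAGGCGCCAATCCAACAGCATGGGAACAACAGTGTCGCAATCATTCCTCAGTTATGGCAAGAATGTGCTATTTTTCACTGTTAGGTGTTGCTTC
TUBB6, a beta-tubulin gene on 18p, has a form (ENST00000591909, 104 codons) whose last 35 coding bases, at chr18:12329146-12329180 on the plus strand, are shown because its share was higher in ERBB2-high than in RARRES2-high while its gene total was lower.
TUBB6 alternative form: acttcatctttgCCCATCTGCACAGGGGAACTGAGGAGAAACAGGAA

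Start regions are shown for members that went together in the same lines. RefSeq (GRCh38.p14) gives SLC5A3, the sodium/myo-inositol cotransporter, and MRPS6, a mitochondrial ribosomal protein, 1 identical window of 250 bases before the start. The bases before the first deposited start, chr21:34073328-34073522 on the plus strand, are printed with each CpG in capitals.
SLC5A3 and MRPS6: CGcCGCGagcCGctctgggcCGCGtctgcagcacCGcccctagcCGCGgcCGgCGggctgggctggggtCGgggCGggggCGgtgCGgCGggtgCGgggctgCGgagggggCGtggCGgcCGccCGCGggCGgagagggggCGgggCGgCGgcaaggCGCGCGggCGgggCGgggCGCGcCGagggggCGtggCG
The whole window held 46 CpG, against a median of 11 (quartiles 3 and 23) over 35116 RefSeq windows of this length. For MX1, an interferon-induced GTPase with antiviral activity, a RefSeq window of 250 bases was taken that holds the deposited start of its leading transcript. This window (chr21:41425989-41426238, plus strand) lies partly after that start and held 25 CpG. Repeats of GAAA, as found in interferon-stimulated response elements, were searched on both strands as GAAANGAAA and GAAANNGAAA, where matches of either may overlap each other. The window held 2 matches of the first and 0 of the second. Of all 35116 windows, 2.69% held the first motif and 3.02% the second. Each match is in capitals within 30 bases, at chr21:41426116-41426145 and chr21:41426161-41426190. The latter 30 bases span the deposited start of the leading transcript, 41426167, and their capitals lie after it. This transcript held 158 of the 224 MX1 counts of the RARRES2-high line.
MX1 match 1: aggagctaggTTTCGTTTCtgcgcccggag
MX1 match 2: ggtctgtgagTTTCATTTCttcgcggcgcg
By symbol, 124 of the 158 members compared between lines matched a RefSeq window. A match describes letters only.

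Most members were silent or sparse. Of the 1964, 1485 had 0 counts in all 3 lines and 272 had counts but fewer than 50 in each line. At least 50 counts were reached in 1 line by 49 members, in 2 lines by 47 and in all 3 by 111. Of 469 protein-coding members, 199 reached 50 counts in a line. Together the members held 193754 counts, 1.71% of the counts in the lines. Ratios were taken where both lines had at least 50 counts, which 158 members met for at least 1 pair; a member can meet this limit only where it is not nearly absent in either line. Entries that join several overlapping genes were 15 of the members and 9 of the 158.

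Genes of chromosome 21 were mostly higher in the ERBB2-high line than in either other line, and genes of chromosome 18 were mostly lowest in the FOLR1-high line. CPM ratios carry a shift that is common to all genes: over all 5765, 6055 and 5599 genes with at least 50 counts in both lines, the median log2 ratio was 0.14 for ERBB2-high over RARRES2-high, 0.41 for ERBB2-high over FOLR1-high and 0.24 for RARRES2-high over FOLR1-high. The shift of the FOLR1-high pairs stands beside that line's higher ribosomal and mitochondrial shares: with those genes left out of the totals, the medians were 0.07, 0.02 and -0.09. Chromosome values are therefore read relative to the median of all genes.

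On 21q the median log2 ratio of ERBB2-high over RARRES2-high was 0.57 over 51 members, 0.43 above that of all genes, and 39 of the 51 lay above it. Against FOLR1-high, the ERBB2-high line had a 21q median of 0.95 over 50 members, 0.55 above all genes. Between the RARRES2-high and FOLR1-high lines the 21q median was 0.03 over 45 members, 0.20 log2 units below all genes, and its sign turned with the scaling (-0.30 with mitochondrial and ribosomal protein genes left out of the totals). Chromosome 21 thus set the ERBB2-high line apart from both others in level.

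Chromosome 18 followed another order. Its short arm had medians of 0.32 for ERBB2-high over RARRES2-high (27 members), 0.82 for ERBB2-high over FOLR1-high (27 members) and 0.62 for RARRES2-high over FOLR1-high (26 members). The long arm had 0.31 (54 members), 0.95 (49 members) and 0.57 (45 members) for the same pairs. Relative to all genes, the members of chromosome 18 together were 0.19, 0.53 and 0.34 log2 units higher. Read relative to all genes, FOLR1-high was thus low on both arms of chromosome 18. With mitochondrial and ribosomal protein genes left out of the totals, the medians of RARRES2-high over FOLR1-high were 0.29 (18p) and 0.24 (18q), beside -0.09 for all genes, and those of ERBB2-high over RARRES2-high 0.26 and 0.25, beside 0.07. Subsets of FOLR1-high cells left fewer members to compare and moved the medians in both directions: with the 258 FOLR1-high cells that had more CXCL14 than DEFB1, the 18q median of RARRES2-high over FOLR1-high was 0.14 over 13 members and the 18p median 0.83 over 12, and with the 190 cells that had at least as many DEFB1, the 18p median was 0.091 over 15 and the 18q median 0.37 over 21. All genes compared with these subsets had medians of 0.054 (more CXCL14) and 0.017 (at least as many DEFB1), so that 18q with the former and 18p with the latter lay 0.089 and 0.075 above all genes, and the other 2 medians 0.78 and 0.35 above. The members compared had medians of 0.15, 0.37, 0.19 and 0.61, in the order given, with all FOLR1-high cells. On 21p only 1 to 3 members were compared in a pair, namely CBSL, U2AF1L5 and SMIM11B, near-identical copies of the 21q genes CBS, U2AF1 and SMIM11A, and 1 entry that joins genes named by clone.

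**Figure D1:**
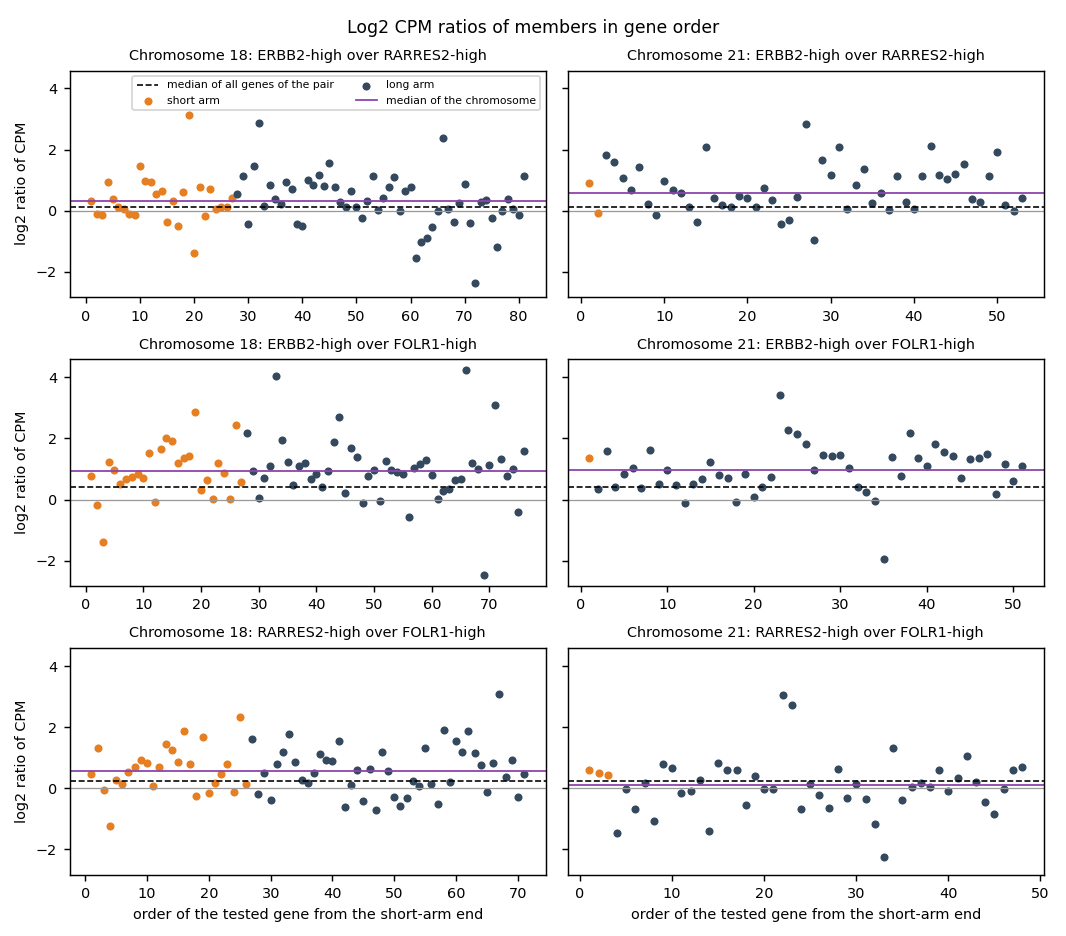
Log2 CPM ratios of members (points, vertical axis) in order of position along chromosome 18 (left) and chromosome 21 (right), for the 3 pairs of lines (rows); orange points are on the short arm and dark points on the long arm. The dashed line is the median of all genes of the pair (0.14, 0.41 and 0.24), the purple line the median of the members of that chromosome, which lies above the dashed line in every panel except chromosome 21 in the RARRES2-high over FOLR1-high row.

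The 2-fold counts used the same ratios and describe their tails. In ERBB2-high against RARRES2-high, 30 of 134 members were at least 2-fold higher in ERBB2-high, beside 13.4% of all genes, and 5 were at least 2-fold higher in RARRES2-high, beside 8.95%. On chromosome 21, 19 of 53 members were at least 2-fold higher in ERBB2-high and 0 in RARRES2-high; on chromosome 18 the counts were 11 and 5 of 81, a share higher in ERBB2-high near that of all genes. In ERBB2-high against FOLR1-high, 58 of 127 were higher in ERBB2-high, beside 19% of all genes, and 3 were higher in FOLR1-high, beside 5.52%. In RARRES2-high against FOLR1-high, 23 of 119 were higher in RARRES2-high, beside 16.3%, and 6 were higher in FOLR1-high, beside 7.05%. With totals without mitochondrial and ribosomal protein genes, the 58 became 30, beside 8.59% of all genes under that scaling, and the 23 became 13, beside 9.06%. Nothing is read from these counts beyond the description, since the chromosomes were chosen on these ratios.

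Just inside the limit of 50 counts, CEP192 had 58, 52 and 75 counts in the ERBB2-high, RARRES2-high and FOLR1-high lines, LSS 60, 52 and 70, DYRK1A 102, 42 and 50, and FAM210A 217, 194 and 52. Just outside it, CXXC1 had 105, 49 and 45 counts, MEX3C 83, 49 and 38, ETS2 81, 76 and 47, TRAPPC8 91, 46 and 47, and BACH1 84, 48 and 57. PQLC1, at 96, 49 and 50, was inside for one pair and outside for another.

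Among the 111 members with at least 50 counts in all 3 lines, the ERBB2-high line was the highest in 85, beside 47.7% of all genes. It was the highest in 38 of 44 members on chromosome 21 and in 47 of 67 on chromosome 18. The FOLR1-high line was the lowest in 52 of 67 members on chromosome 18, beside 51.7% of all genes, and in 22 of 44 on chromosome 21. On chromosome 21 the RARRES2-high line was the lowest in nearly as many, 21 of 44, beside 29.6% of all genes. The FOLR1-high count on chromosome 21 was near that of all genes. Over both chromosomes, the RARRES2-high line was the highest in 16 of the 111 members, beside 34.1% of all genes, and the FOLR1-high line in 10, beside 18.2%. The ERBB2-high line was the lowest in 5, beside 18.7%.

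Set among all chromosomes, with every gene of each chromosome included, chromosome 21 ranked 1st of 23 from the highest median in ERBB2-high over FOLR1-high and chromosome 18 ranked 2nd. In ERBB2-high over RARRES2-high, chromosome 21 ranked 4th, after chromosomes 4, 10 and 14, and chromosome 18 ranked 8th. In RARRES2-high over FOLR1-high, chromosome 18 ranked 1st and chromosome 21 ranked 16th.

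**Figure D2:**
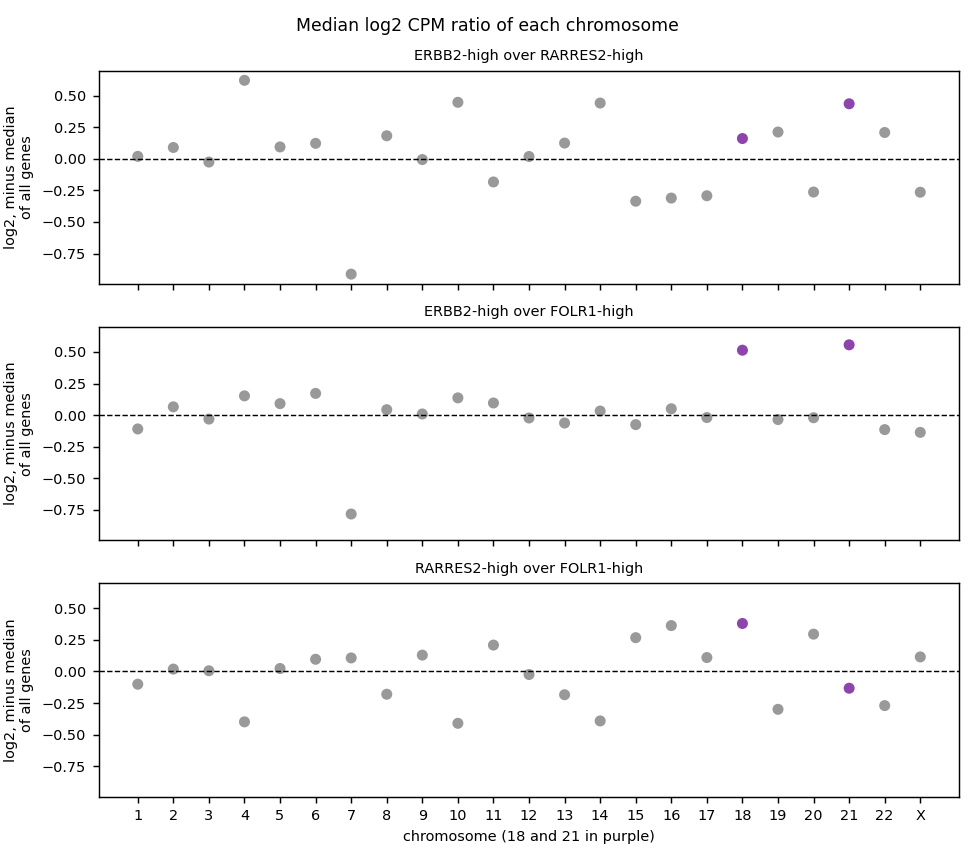
Median log2 CPM ratio of each chromosome minus the median of all genes (vertical axis), by chromosome (horizontal axis), for the 3 pairs of lines; each point is 1 chromosome with all its genes of at least 50 counts in both lines. Chromosomes 18 and 21 (purple) are the highest points of the middle panel, at 0.51 and 0.56.

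Medians in windows along the chromosomes show where the ratios leaned. In bins of 10 Mb with at least 5 members, ERBB2-high over FOLR1-high lay above the median of all genes in 7 of 7 bins of chromosome 18 (by 0.32 to 0.73) and 3 of 3 of chromosome 21 (by 0.39 to 0.84). ERBB2-high over RARRES2-high lay above it in 5 of 7 bins of chromosome 18 and 3 of 3 of chromosome 21. Its highest bins on chromosome 18 were 20 to 30 Mb and 30 to 40 Mb, at 0.58 and 0.66 above all genes, and on chromosome 21 the bin of 40 to 50 Mb stood 0.92 above. RARRES2-high over FOLR1-high lay above it in 5 of 6 bins of chromosome 18 and in 0 of 3 of chromosome 21. The exception on chromosome 18 was 40 to 50 Mb, where 6 members had a median 0.55 below that of all genes.

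The share of counts per cell shows the spread within each line. Members of chromosome 21 held a median of 0.882% of a cell's counts in the ERBB2-high line (quartiles 0.766 and 0.979%), 0.499% in the RARRES2-high line (0.422 and 0.574%) and 0.440% in the FOLR1-high line (0.368 and 0.513%). The lower quartile of the ERBB2-high cells therefore lay above the upper quartile of each other line. Members of chromosome 18 held 1.33% (1.19 and 1.47%), 1.16% (0.992 and 1.27%) and 0.903% (0.800 and 1.02%), with quartile ranges that overlap between neighbouring lines. Without the 3 members with the most counts, the chromosome 18 medians were 0.854, 0.655 and 0.393%. Cells of a line are not replicates, and these shares follow the ratios above. With mitochondrial and ribosomal protein genes left out, the chromosome 21 medians were 1.04, 0.616 and 0.691%, so that the order of RARRES2-high and FOLR1-high turned.

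**Figure D3:**
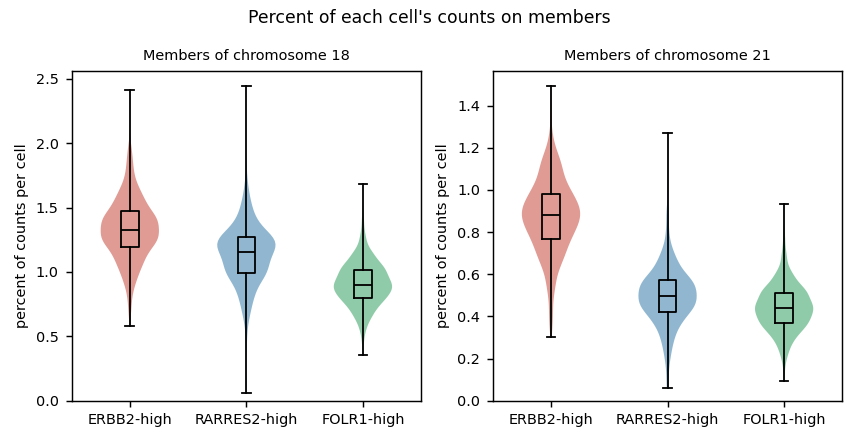
Percent of each cell's counts on members of chromosome 18 (left) and chromosome 21 (right), by line; the shapes show the spread over 648, 473 and 765 cells, boxes the quartiles and median, and whiskers the lowest and highest cell. On chromosome 21 the ERBB2-high median of 0.882% lies above the upper quartiles of both other lines, 0.574 and 0.513%.

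The members with the most counts did not all follow their chromosome. On 18p these were MYL12B and MYL12A, neighbouring genes for regulatory light chains of non-muscle myosin, at 989, 1090 and 608 CPM and at 969, 1051 and 548 CPM in the ERBB2-high, RARRES2-high and FOLR1-high lines. VAPA, which tethers the endoplasmic reticulum to other membranes, had 285, 227 and 126 CPM. All 3 were lowest in the FOLR1-high line. On 18q the entry that joins C18orf32 and the ribosomal protein gene RPL17 had 2678, 2619 and 3956 CPM, highest in the FOLR1-high line, whose ribosomal protein share was also the highest. SNRPD1, a core protein of spliceosomal snRNPs, had 412, 558 and 395 CPM. On 21q, CSTB, the cysteine protease inhibitor cystatin B, had 1254, 553 and 494 CPM, and the superoxide dismutase gene SOD1 had 627, 423 and 452 CPM. HMGN1, a nucleosome-binding protein, had 463, 389 and 349 CPM, a difference between ERBB2-high and FOLR1-high no larger than the shift common to all genes. CSTB was more than 2-fold higher in ERBB2-high than in either other line, SOD1 and HMGN1 less.

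Among members with at least 50 counts in both ERBB2-high and RARRES2-high, the ratio was largest in IMPA2, RBBP8 and CBR1. IMPA2 (chr18:11981037-12030883), an inositol monophosphatase, had 483 CPM in ERBB2-high (interval 460 to 507), 55.1 in RARRES2-high (47.4 to 63.6) and 66.2 in FOLR1-high (58.9 to 74.2). RBBP8 (chr18:22933315-23026488), which encodes the DNA end resection factor CtIP, had 539 CPM (515 to 565), 74.3 (65.4 to 84.1) and 32.8 (27.7 to 38.5). CBR1 (chr21:36069941-36073166), a carbonyl reductase, had 571 CPM (546 to 597), 80.2 (71.0 to 90.4) and 128 (118 to 139). The ERBB2-high interval lay far above both others in each of these genes, with ratios over RARRES2-high of 8.78 (interval 7.54 to 10.3), 7.26 (6.36 to 8.32) and 7.12 (6.27 to 8.11). CBR3, the neighbouring carbonyl reductase gene, was highest in RARRES2-high, unlike CBR1, with 59, 113 and 7 counts. Like CBR1, it was higher in ERBB2-high than in FOLR1-high.

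PMAIP1 (chr18:59899948-59904306), which encodes the pro-apoptotic BCL2 family protein NOXA, had the largest ratio of ERBB2-high over FOLR1-high among members with at least 50 counts in both lines, 19.0 (interval 15.97 to 22.7). Its levels were 580, 112 and 30.6 CPM, so that the 3 lines were separated from each other. RBBP8 followed with 16.5 (13.9 to 19.6). The MRPS6 entry, which also joins 2 genes named by clone, had 272 CPM in ERBB2-high (interval 255 to 290), 213 in RARRES2-high (198 to 230) and 25.5 in FOLR1-high (21.03 to 30.6). SLC5A3, which shares its start window, had 86.6, 117 and 17.7 CPM. These 2 entries overlap on 1 strand, so reads could have been divided between them, and both were low in the FOLR1-high line. MBP (chr18:76978827-77132844), known as myelin basic protein and also transcribed in other cells from an upstream start, had 103, 102 and 11.96 CPM, with a ratio of RARRES2-high over FOLR1-high of 8.56 (6.41 to 11.6).

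Members at least 2-fold lower in ERBB2-high were few. CYB5A (chr18:74250847-74292016), cytochrome b5, had 23.5 CPM in ERBB2-high (interval 18.7 to 29.2), 121 in RARRES2-high (109 to 133) and 132 in FOLR1-high (121 to 143). NEDD4L, a ubiquitin ligase of ion channels, had 23.8, 70.2 and 18.6 CPM, and TUBB6 had 104, 271 and 84.6 CPM; both were highest in RARRES2-high. Within the limit of 50 counts, the 3 largest ratios of FOLR1-high over RARRES2-high, those of CBS, NRIP1 and the TCP10L entry, were on 21q. The place of CBS rests on its uncertain split from a 21p copy. With the copies summed, ENOSF1 on 18p, at a ratio of 2.35, would stand above CBS. NRIP1, a nuclear receptor corepressor, had 131, 37.3 and 104 CPM, lowest in RARRES2-high. The entry that joins TCP10L and C21orf59 had 146, 34.3 and 91.3 CPM in the same order of lines.

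CBS, cystathionine beta-synthase, had 19.2, 15.7 and 74.4 CPM, highest in FOLR1-high. Its near-identical copy CBSL on 21p makes this split uncertain; summed, the pair had 107, 136 and 415 counts, or 31.1, 40.3 and 91.9 CPM, again highest in FOLR1-high. U2AF1, a splice site recognition factor, summed with its copy U2AF1L5, had 1356, 996 and 689 counts, and SMIM11A with SMIM11B 126, 142 and 48. ENOSF1 had 18.9, 21.02 and 49.4 CPM. It overlaps TYMS on the opposite strand at the tip of 18p, and the labels and files do not say whether the counting used strand. TYMS, thymidylate synthase, had 72.3, 78.4 and 82.2 CPM.

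**Figure D4:**
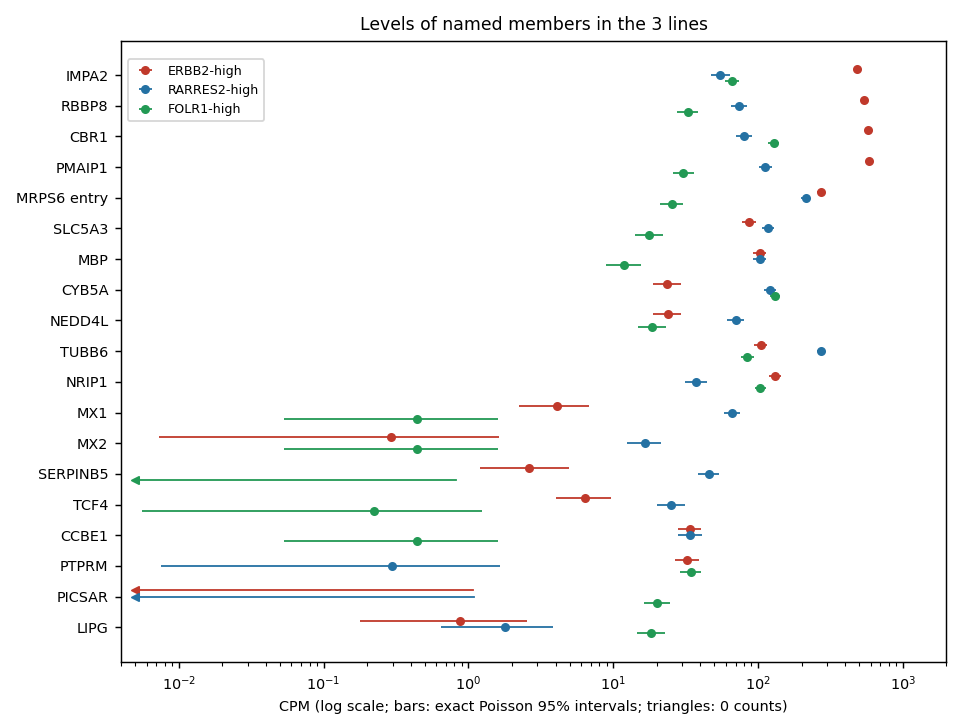
CPM of named members (horizontal axis, log scale) in the ERBB2-high (red), RARRES2-high (blue) and FOLR1-high (green) lines; bars are exact Poisson 95% intervals and triangles at the left edge mark 0 counts. IMPA2, RBBP8, CBR1 and PMAIP1 show ERBB2-high alone at the right, between 483 and 580 CPM, and MX1 shows RARRES2-high alone at 66.3 CPM.

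Lists of genes by role were drawn up with earlier results of these data known, and are described by counts and medians beside those of all genes. For all genes, the medians were 0.14 for ERBB2-high over RARRES2-high, 0.41 for ERBB2-high over FOLR1-high and 0.24 for RARRES2-high over FOLR1-high. The shares at least 2-fold higher in the first line were 13.4, 19 and 16.3%. All listed genes are members, which together had medians of 0.38, 0.95 and 0.37. Of the members, 30 of 134, 58 of 127 and 23 of 119 were at least 2-fold higher in the first line. A list above all genes is therefore not thereby above its chromosomes. List counts use totals over all counts. Without mitochondrial and ribosomal protein genes in the totals, every ERBB2-high over FOLR1-high log2 ratio falls alike, the median of all genes from 0.41 to 0.02. Of 13 chromosome 21 genes often named in work on gene dosage, 10 had enough counts in ERBB2-high and RARRES2-high, with a median log2 ratio of 1.08 against 0.14 for all genes, and 5 were at least 2-fold higher in ERBB2-high. TTC3, a ubiquitin ligase, had 286, 67.2 and 104 CPM, and APP, the amyloid precursor protein, had 225, 83.8 and 176 CPM. USP25, a deubiquitinase, had 50.3, 16.6 and 16.8 CPM. In ERBB2-high over FOLR1-high the median was 1.40 against 0.41 over 8 genes, and 5 were at least 2-fold higher. Of the 5, CSTB, at 1.34, would fall under 2-fold without mitochondrial and ribosomal protein genes in the totals. In RARRES2-high over FOLR1-high it was -0.13 against 0.24, and 1 gene, APP, was at least 2-fold lower in RARRES2-high. RCAN1, a calcineurin inhibitor, passed the minimum in ERBB2-high alone, with 202, 23 and 18 counts. BACE2, a relative of the beta-secretase BACE1, had 146, 140 and 6 counts, and CXADR, the coxsackievirus and adenovirus receptor, had 5, 5 and 143.

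Of 14 chromatin and RNA processing genes, 4 of 11 were at least 2-fold higher in ERBB2-high than in RARRES2-high (median 0.42, against 0.14 and 13.4% for all genes) and 6 of 10 than in FOLR1-high (median 1.05, against 0.41 and 19%), with 0 lower in either pair. MORC3, a nuclear body ATPase, had 54.3, 17.2 and 15.5 CPM, and BRWD1, a bromodomain protein, had 50.5, 19.8 and 24.8 CPM. RRP1 and RRP1B, nucleolar proteins of ribosome assembly, had 99.3, 48.0 and 47.0 CPM and 87.4, 39.4 and 51.8 CPM. All 4 lie on 21q and were highest in ERBB2-high. Without mitochondrial and ribosomal protein genes in the totals, only MORC3 (log2 ratio 1.81) of the list would stay 2-fold above FOLR1-high. The share of all genes under that scaling was 8.59%. SON, a splicing cofactor at 216, 161 and 121 CPM, and SUMO3, a small ubiquitin-like modifier at 238, 195 and 94.6 CPM, were at less than 2-fold between ERBB2-high and RARRES2-high.

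Of 4 TGF-beta signalling genes, 3 had enough counts in all lines, and 2 of the 3 were at least 2-fold higher in ERBB2-high than in RARRES2-high (median 1.09, against 0.14 and 13.4% for all genes) and than in FOLR1-high (median 1.16, against 0.41 and 19%). TGIF1, a repressor of SMAD activity, had 121, 44.1 and 42.3 CPM, and the entry that joins ELAC1 and SMAD4 had 52.9, 24.9 and 23.7 CPM; these were the 2. SMAD2 had 81.6, 64.8 and 43.6 CPM. SMAD7, an inhibitory SMAD, had 70, 25 and 10 counts.

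Of 7 kinases, 1 of 3 was at least 2-fold higher in ERBB2-high than in RARRES2-high (median 0.93, against 0.14 and 13.4% for all genes) and 4 of 5 than in FOLR1-high (median 1.42, against 0.41 and 19%). The former was PFKL, liver-type phosphofructokinase, at 107, 37.3 and 39.6 CPM. YES1, a SRC family kinase, had 118, 61.9 and 50.7 CPM. Its log2 ratio over FOLR1-high, 1.22, would fall under 2-fold without mitochondrial and ribosomal protein genes in the totals. DYRK1A, a dual-specificity kinase studied for dosage, had 29.6, 12.4 and 11.1 CPM.

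Of 7 genes of nucleotide and one-carbon metabolism, 5 had enough counts, with medians of 0.29, -0.18 and -0.54 against 0.14, 0.41 and 0.24 for all genes. The 0.29 is the ratio of CBS, whose split from its copy CBSL is uncertain. Summed, the pair was lower in ERBB2-high than in RARRES2-high, at 31.1 and 40.3 CPM. The median would then be that of TYMS, -0.12, below all genes. PDXK, pyridoxal kinase, had 199, 45.9 and 44.1 CPM, while CBS and ENOSF1 were highest in FOLR1-high. GART, a trifunctional enzyme of purine synthesis, had 42.1, 30.5 and 44.3 CPM. SLC19A1, the reduced folate carrier, stayed under 50 counts, with 36, 24 and 21.

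Of 13 genes of chromosome segregation, centrosome and replication, 7 had enough counts, with medians of 0.37, 0.50 and -0.04 against 0.14, 0.41 and 0.24 for all genes. RBBP8 and the cohesin acetyltransferase gene ESCO1 (47.9, 21.9 and 25.03 CPM) were at least 2-fold higher in ERBB2-high than in RARRES2-high. NDC80, a kinetochore protein, had 61.6, 47.7 and 43.4 CPM, and HAUS1, an augmin subunit, 62.7, 39.96 and 65.6 CPM. The DONSON entry of this list also joins the ATP synthase gene ATP5O. Of 16 transcription factor genes, 3 to 5 had enough counts in a pair. PKNOX1, a TALE homeobox factor, had 46.5, 21.3 and 47.8 CPM, lowest in RARRES2-high as NRIP1 was, and TSHZ1, a zinc finger factor, had 60, 135 and 20 counts. RUNX1 had 79, 57 and 7 counts, and GATA6 46, 68 and 52.

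Of 11 membrane traffic and lipid transport genes, 0 of 5 were at least 2-fold apart between ERBB2-high and RARRES2-high (median 0.37, against 0.14), and 2 of 4 were higher in ERBB2-high than in FOLR1-high (median 0.97, against 0.41 and 19% for all genes). VPS4B, an ATPase of the ESCRT machinery, had 97.9, 93.8 and 42.5 CPM, and LMAN1, a cargo receptor of the secretory pathway, 213, 311 and 135 CPM. The 2 genes higher than in FOLR1-high were VPS4B and OSBPL1A, at log2 ratios of 1.20 and 1.22. Neither would stay past 2-fold without mitochondrial and ribosomal protein genes in the totals. The entry that joins ACAA2 and MYO5B had 35, 340 and 570 counts, low in ERBB2-high. Of 5 cell death and survival genes, PMAIP1 and MALT1, a paracaspase of NF-kappaB signalling with 129, 257 and 38 counts, were compared, and BCL2 had 6, 12 and 2 counts. Of 11 actomyosin and adhesion genes, 2 or 3 were compared in a pair, with 0 at 2-fold, and RAB31, a vesicle traffic GTPase, had 173, 220 and 28 counts.

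Most genes of the clustered tissue-restricted families stayed under 50 counts in every line. Of 7 desmosomal cadherins, DSG2 alone passed the minimum, with 301, 401 and 246 counts; DSC2 had 34, 8 and 26, DSC3 had 6, 31 and 2, and DSG1, DSG3 and DSG4 had 0 in all lines. Of 10 clade B serpins, SERPINB5 and SERPINB8 passed it in a line, SERPINB8 with 60, 76 and 5 counts, and SERPINB3, SERPINB11, SERPINB12 and SERPINB13 had 0 in all. The trefoil factors TFF1, TFF2 and TFF3 had at most 2 counts in any line, and the protease gene TMPRSS3 had 0, 25 and 5.

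Some members were well detected in 1 or 2 lines and nearly absent in another. Among members with at least 50 counts in RARRES2-high, 6 of 152 (3.95%) had at most 3 in FOLR1-high, beside 2.69% of all genes, and 1 had at most 3 in ERBB2-high, beside 1.6%. For ERBB2-high, 1 of 181 members had at most 3 counts in RARRES2-high, beside 1.32%, and 1 in FOLR1-high, beside 1.69%. For FOLR1-high, 2 of 143 had at most 3 in ERBB2-high, beside 1.3%, and 2 in RARRES2-high, beside 1.87%. These shares rest on few members each.

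The MX pair, interferon-induced GTPases that lie side by side on 21q, was detected mostly in the RARRES2-high line. MX1 had 14, 224 and 2 counts, or 4.07 CPM in ERBB2-high (interval 2.22 to 6.82), 66.3 in RARRES2-high (57.9 to 75.6) and 0.443 in FOLR1-high (0.0536 to 1.60). The RARRES2-high level lay far above both others. Whether the 14 counts of ERBB2-high came from free RNA of the shared capture was not tested. Of the markers of the RARRES2-high line, RARRES2 had 43.6 CPM in ERBB2-high against 1648 in its own line. TMEM100 had 0 counts in ERBB2-high against 351. Both were used to assign cells, so their levels in ERBB2-high do not measure free RNA. MX2 had 1, 56 and 2 counts, and its ratio of RARRES2-high over FOLR1-high was 37.4 (interval 9.89 to 316.6). The receptor genes of the same chromosome were closer between lines: IFNAR1, a type I interferon receptor subunit, had 41.3, 36.1 and 23.7 CPM, the entry that joins IFNAR2 and IL10RB 47.1, 35.5 and 19.9 CPM, and IFNGR2 60, 48 and 33 counts.

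SERPINB5, which encodes maspin, had 9, 154 and 0 counts. Against the 0 of FOLR1-high, taken as 3 counts over the line, it was at least 68.6-fold higher in RARRES2-high. TCF4, a basic helix-loop-helix factor, had 22, 85 and 1 counts. CCBE1, a secreted protein of lymphatic development, had 116 and 115 counts in ERBB2-high and RARRES2-high and 2 in FOLR1-high, a ratio of ERBB2-high over FOLR1-high of 76.1 (interval 20.6 to 636). PTPRM, a receptor-type tyrosine phosphatase on 18p, had 112 and 155 counts in ERBB2-high and FOLR1-high and 1 in RARRES2-high. Its ratio of FOLR1-high over RARRES2-high was 116, with an interval from 20.5 that is wide because it rests on 1 count.

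PICSAR, a long non-coding RNA gene of 21q, had 91 counts in FOLR1-high and 0 in both other lines, by the same floor of 3 counts at least 23.1-fold higher than in ERBB2-high and at least 22.7-fold higher than in RARRES2-high. LIPG, endothelial lipase, had 3, 6 and 83 counts. These differences sit beside chromosome medians of less than 1 log2 unit, and they point in different directions within the same chromosome: TCF4, CCBE1, SERPINB5 and LIPG are all on 18q.

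Few members passed the limit set for a difference in transcript shares between lines. In single-gene entries with at least 100 counts in both lines, a transcript share differed by at least 25 percentage points in 1 of 86 members between ERBB2-high and RARRES2-high, beside 0.849% of all genes. The count was 0 of 79 between ERBB2-high and FOLR1-high, beside 0.824%, and 2 of 70 between RARRES2-high and FOLR1-high, beside 1.29%. The median of the largest difference per member was 2.17, 1.77 and 1.88 points, against 1.72, 1.77 and 1.84 over all genes. Under 5 points were 64, 56 and 51 members. Entries with 1 deposited transcript, such as NDC80 and SMCHD1, were included although their share cannot differ. They enlarge the numbers compared and lower the medians, for members and for all genes.

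PRMT2 had the largest difference. Its short form held 36.1% of 201 counts in ERBB2-high (exact binomial interval 29.7 to 43.4%), 64.7% of 147 in RARRES2-high (56.3 to 72.3%) and 30.7% of 122 in FOLR1-high (22.3 to 39.3%). Its long form held 32.5% (25.9 to 39.3%), 11.7% (6.88 to 17.9%) and 53.1% (44.0 to 62.4%). The RARRES2-high interval did not overlap the others for either form. The sequence printed above as the short form thus held the majority of PRMT2 counts in RARRES2-high. From whole-number matrix entries alone, PRMT2 had 138, 124 and 99 counts, so that it fell under the minimum of 100 in FOLR1-high; the short form held 50.7, 76.6 and 37.4% and the long form 31.9, 10.5 and 53.5%, so that in ERBB2-high the short form was the more frequent in these entries.

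For TPGS2, the proximal form held 52.0% (46.5 to 57.2%) of 349 counts, 56.6% (50.9 to 62.1%) of 313 and 31.0% (25.6 to 37.0%) of 270 in the ERBB2-high, RARRES2-high and FOLR1-high lines. The distal form held 20.9% (16.8 to 25.6%), 19.7% (15.5 to 24.7%) and 42.7% (36.6 to 48.7%). The FOLR1-high line stood apart in both forms. The deposited counts divide a read among the transcripts it fits, and with whole-number matrix entries alone 43 members reached 100 counts in RARRES2-high and FOLR1-high, with 0 past 25 points. In these entries the proximal form of TPGS2 held 47.5, 51.0 and 28.4%, and the distal form 33.0, 31.1 and 51.2%.

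Other differences stayed under 25 points. PIGP, a subunit of the enzyme that begins GPI anchor synthesis, had ENST00000464265 at 8.24% (4.94 to 12.3%), 29.9% (21.5 to 39.9%) and 10.6% (6.35 to 16.6%). RNMT, the mRNA cap methyltransferase, had ENST00000543302 at 23.1, 9.61 and 26.9%. C18orf21 had ENST00000592875 at 59.2, 71.1 and 81.6%, and the kinase RIOK3 had ENST00000577501 at 26.6, 17.3 and 37.3%. For TUBB6, the alternative form printed above held 16.4% (12.8 to 20.7%) of 359 counts in ERBB2-high, 4.91% (3.61 to 6.52%) of 916 in RARRES2-high and 3.14% (1.63 to 5.42%) of 382 in FOLR1-high, with all of its counts in whole entries. Its share was thus highest in ERBB2-high, while the TUBB6 total was highest in RARRES2-high. The share rests on 59, 45 and 12 counts. The last coding bases of this form lie within AFG3L2 on the opposite strand, which had 167, 95 and 142 counts. Whether the counting used strand is not stated.

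**Figure D5:**
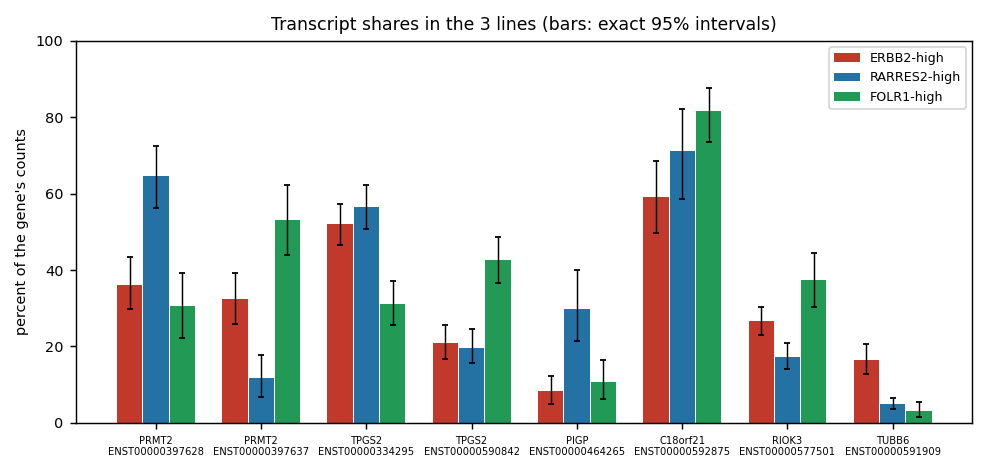
Share of the gene's counts held by 8 transcripts of members (vertical axis, percent) in the ERBB2-high (red), RARRES2-high (blue) and FOLR1-high (green) lines; error bars are exact binomial 95% intervals. The PRMT2 short form is highest in RARRES2-high at 64.7% and the TPGS2 distal form in FOLR1-high at 42.7%.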

How the data were processed

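Single-cell transcripts of 1 pool of 3 cell lines were analysed from the PromethION library; the Illumina library contributed its barcode list only. The authors deposited estimated counts per transcript and barcode, not normalized, per the file headers; the values of a gene entry sum to whole numbers (within 1e-06) per barcode. The series text names the Isosceles package, and the submitters' processing notes name Cell Ranger 6.0.1 and GRCh38; for the aligner: not given in the sources used here. Whether the counting used molecular identifiers is not stated either, and intervals cover counting error only.

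Counts were summed per gene entry and line (3377992 to 4514999 counts) and scaled to 1000000 counts of the line (CPM). Exact Poisson intervals (CPM), exact Clopper-Pearson intervals (shares) and conditional binomial intervals (ratios) were at 95%, on counts rounded where needed. Gene functions are background. Positions are as deposited, transcript structures from GENCODE 29. Doublets were left in; Scrublet (scanpy 1.11.5) marked 76 of 2462 barcodes (3.09%), 30 of them in the lines. Python 3.11.15, numpy 2.4.6, pandas 2.3.3 and scipy 1.17.1 were used. The ratio and share steps were tested on simulated data.

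The members, lines and gene lists were chosen with earlier results of these data known. Named genes were, for each pair and direction, the 3 members with the largest ratio; the 3 with the most counts on 18p, 18q and 21q; the role lists; the 3 with the largest share difference per pair; up to 5 per line with at least 50 counts there and at most 3 in another; and the 2 nearest either side of 50 counts. The transcripts and start windows whose sequences are printed, TUBB6 among them, were chosen after their values were seen. Short arms were taken as below 18 Mb (chromosome 18) and 12 Mb (chromosome 21).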

Additional observations from a re-analysis of the deposited data

How the results depend on the processing

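No paired analysis was possible because 1 library holds all lines and no replicate numbers exist. Of the recomputed values, 150 stayed within the main value's interval, or for counts within 1.5 times, among them all values with Scrublet doublets removed and with a higher minimum of counts per barcode, and 54 moved by more. With a marker share of at least 90%, members at least 2-fold higher were 19 (ERBB2-high over RARRES2-high), 3 (the reverse) and 3 (FOLR1-high over RARRES2-high), transcript share calls 0 (ERBB2-high and RARRES2-high) and 1 (RARRES2-high and FOLR1-high), and the chromosome 21 share in RARRES2-high 0.479%. At a minimum of 20 counts, the 2-fold counts were 54 and 14 (ERBB2-high over RARRES2-high and the reverse), 96 and 7 (ERBB2-high over FOLR1-high and the reverse) and 45 (RARRES2-high over FOLR1-high); at 100 counts they were 2 (RARRES2-high over ERBB2-high), 38 and 0 (ERBB2-high over FOLR1-high and the reverse), and 15 and 3 (RARRES2-high over FOLR1-high and the reverse), with fewer members compared. At a 1.5-fold limit they were 55, 92, 49 (ERBB2-high over RARRES2-high, ERBB2-high over FOLR1-high, RARRES2-high over FOLR1-high) and 13 (FOLR1-high over RARRES2-high).

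Without mitochondrial and ribosomal protein genes in the totals, ERBB2-high over FOLR1-high medians were 0.43 (18p), 0.56 (18q) and 0.56 (21q), the 21q median of RARRES2-high over FOLR1-high was -0.30, 2-fold counts were 30 and 13, and per-cell shares were 1.26, 1.10 and 0.793% (chromosome 18) and 1.04, 0.616 and 0.691% (chromosome 21). Centred on all genes, these medians were 0.42, 0.54, 0.55 and -0.20, with 30 members at least 2-fold higher in ERBB2-high than FOLR1-high. Transcript share calls were 2 at 50 counts and 0 at 40 points (ERBB2-high and RARRES2-high), and 1 at 40 points and 0 with whole entries (RARRES2-high and FOLR1-high).

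Chosen after seeing the data: with the 258 FOLR1-high cells that had more CXCL14 than DEFB1, ERBB2-high over FOLR1-high was 0.68 (18q, 12 members) and 0.68 (21q, 26 members), and RARRES2-high over FOLR1-high 0.14 (18q) and -0.18 (21q); the 18p medians were 1.29 and 0.83 (12 members each). With the 190 cells that had at least as many DEFB1, ERBB2-high over FOLR1-high was 0.48 (18p) and 0.70 (18q), and RARRES2-high over FOLR1-high 0.091 (18p). Without the 3 members with the most counts, shares were 0.854, 0.655 and 0.393% (chromosome 18) and 0.636, 0.359 and 0.307% (chromosome 21). For the FOLR1-high cell subsets, fewer members had enough counts, and medians over ERBB2-high and RARRES2-high alone are not counted, since no cell of either changed. The cause of the other moves was not tested. Depth limits ratios to members with at least 50 counts in both lines.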
